A study of Homo sapiens with 16 samples.

Results

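The 10 genes described here transport ions across the airway surface: the chloride and bicarbonate channel CFTR, the 3 subunits of the epithelial sodium channel (SCNN1A, SCNN1B and SCNN1G), the calcium-activated chloride channel ANO1, the anion transporters SLC26A4 and SLC26A9, the basolateral cotransporter SLC12A2, the potassium channel KCNQ1 and the proton pump ATP12A. The values are those of all probes, controls aside, that the array annotation names after one of these 10 genes, which were 13 of 58201 probes on the arrays and 10 of 42665 gene names. RNA came from 16HBE cells, a human bronchial epithelial line immortalised with the SV40 large T antigen, in 4 conditions of 4 arrays each. 16HBE-WT cells carried wild-type MET, the receptor of hepatocyte growth factor (HGF), and 16HBE-ex14 cells were the CRISPR/Cas9-edited clone F, in which MET lacks exon 14. Every culture was starved of serum for 2 h, and the 16HBE-WT+HGF and 16HBE-ex14+HGF cells then received 20 ng/mL of HGF for 24 h. The edited genotype was thus 1 clone, so that a difference from the clone's isolation and a difference from the deletion cannot be told apart. The study describes the 4 replicates as separated by a week of culture; the files do not say which week each array holds. The treated wild-type samples have titles with another code than WT, while their other labels say WT, and the replicate numbers used here follow the order of deposit.

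In the airway epithelium, CFTR and ANO1 let chloride out through the apical membrane, CFTR after a rise in cyclic AMP and ANO1 after a rise in calcium. SLC12A2 loads the cell with chloride from the basolateral side, and potassium channels such as KCNQ1 hold the voltage that drives chloride out. The epithelial sodium channel takes sodium, and water after it, back from the surface liquid, while SLC26A4, SLC26A9 and ATP12A act on its bicarbonate, chloride and acidity. HGF, the ligand of MET, is a motility and growth factor for epithelial cells, and exon 14 encodes a stretch of MET next to the membrane through which the receptor is marked for degradation.

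The probes on which the results turn are shown by their first 30 of 60 bases, 5′ to 3′, since CFTR and ANO1 each had a pair of probes that behaved differently. Their positions follow the array's own annotation, which uses hg19.
CFTR A_23_P215720: acagcctcttagatgcagttctgaagaaga
CFTR A_22_P00003934: taacccagaaataccagctgagtaggagaa
ANO1 A_24_P87036: atgagtgatctaaatttgcagcaatgatac
ANO1 A_24_P110831: cttatctggtgtgttcatatagaatcacct
SCNN1A A_23_P128323: ggagctttgacaaggaactttcctaagaaa
The CFTR probe A_23_P215720 lay at chr7:117308553-117308612 and was designed on the reference transcript of CFTR, which it met at base 5965. The other, A_22_P00003934, lay 47.4 kb further along at chr7:117355952-117356011 and was designed on a transcript model that the annotation also lists as the long noncoding RNA lnc-CFTR-1. ANO1 probe A_24_P87036 lay at chr11:70035233-70035292, at base 4389 of its transcript. A_24_P110831, at chr11:70009621-70009680, lay 25.6 kb before it and was designed on a different ANO1 transcript model. The SCNN1A probe lay at chr12:6456676-6456735 on the minus strand. Of the 13 probes, 10 had a transcript that RefSeq lists under the same symbol. Whether a probe falls in a given exon was not looked up, as no annotation of that genome build was used here.

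Values are log2 signals minus the 75th percentile of the array's probes, so that 0 is the array's upper quartile, and they compare arrays, not probes. A probe counts as detected on an array where the scanner software marked it well above background. CFTR A_23_P215720, ANO1 A_24_P87036, SCNN1A and SLC12A2 were detected on all 16 arrays. CFTR A_22_P00003934 was detected on 12 arrays, ANO1 A_24_P110831 on 5 and ATP12A on 5. KCNQ1 had a probe detected on 2 arrays and another detected on 1, and SLC26A4 was detected on 1. SCNN1B, SCNN1G and SLC26A9 were detected on none. No spot of these probes was saturated or marked as an outlier. Probes detected on at least 4 arrays were tested, which left 7 probes of 5 genes: CFTR, ANO1 with both probes each, SCNN1A, SLC12A2 and ATP12A. The second ANO1 probe passed this limit only through arrays of the edited clone.

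A probe was called changed at an adjusted p below 0.05 (limma over all 34600 tested probes, Benjamini-Hochberg within each comparison) and a fold change above 1.5. HGF in 16HBE-ex14 cells changed 2 of the 7 probes, ANO1 upward and SCNN1A downward, where 1.99% of all tested probes were called (1.05% higher and 0.936% lower). HGF in 16HBE-WT cells changed 0 of 7, where 0% of all probes were called, and 2 of the 7 had an unadjusted p under 0.05 in limma, the only tool run. Without HGF, 16HBE-ex14 differed from 16HBE-WT at 2 of 7 probes, ANO1 and SCNN1A, both higher, against 9.43% of all probes (4.5% higher and 4.93% lower). With HGF in both genotypes the difference was called at 4 of 7, both ANO1 probes and SCNN1A higher and CFTR A_22_P00003934 lower, against 10.8% of all probes (5.38% higher and 5.43% lower). One of the 4, ANO1 A_24_P110831, was tested only because of its signal in the clone, so its call adds nothing to the count. The CFTR call came from the probe whose transcript model is not the reference CFTR transcript, and CFTR A_23_P215720 was not called. With no limit on detection the same 4 were called and KCNQ1 A_23_P429977 was added. The share of all 58201 probes called in that setting is not given, so no count is compared there. The difference between the HGF responses of the genotypes was called at 0 of 7 and at 0% of all probes, with an unadjusted p under 0.05 at 2 of the 7. The median difference of the 7 probes lay between 0.00 and 0.14 in the 5 comparisons, while that of all tested probes lay between -0.02 and 0.06.

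ANO1 encodes a chloride channel of the apical membrane that opens when calcium rises, and it was the gene of the 10 with the clearest response to HGF. With probe A_24_P87036, the 16HBE-WT arrays read 0.28, 0.39, 0.19 and 0.44, and the 16HBE-WT+HGF arrays read 1.20, 0.82, 1.01 and 0.75. The 16HBE-ex14 arrays read 1.39, 1.26, 2.20 and 1.11, and the 16HBE-ex14+HGF arrays read 2.89, 2.82, 2.95 and 2.69. The levels thus rose from wild type through treated wild type and the untreated clone to the treated clone, and only the middle pair overlapped; the 4 arrays of 16HBE-ex14+HGF stood above the other 12. In signal units, which are not scaled between arrays, this went from 220 ± 21.2 in 16HBE-WT to 1588 ± 244 in 16HBE-ex14+HGF (SD, n = 4).

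In 16HBE-ex14 cells, HGF raised ANO1 (A_24_P87036) 2.55-fold (log2 difference 1.35, SE 0.19, adjusted p = 0.00184). In 16HBE-WT cells the difference was 0.62 on the log2 scale (95% interval 0.22 to 1.02), with no overlap between the arrays, but it did not pass the test (adjusted p = 0.885). The genotypes already differed without HGF, 16HBE-ex14 being 2.24-fold above 16HBE-WT (adjusted p = 0.000619). With HGF in both, the gap was 3.72-fold (log2 1.89, SE 0.19, adjusted p = 1.03e-05). The 2 HGF responses differed by 0.73 on the log2 scale (95% interval 0.16 to 1.30), and this did not pass the adjustment over all probes (unadjusted p = 0.0155, adjusted p = 0.936). Replicate 3 of 16HBE-ex14, at 2.20, stood above its group. On the separate slides the HGF response of 16HBE-ex14 cells was 1.53 and 1.17, and the gap between genotypes without HGF was 0.99 and 1.34.

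The second ANO1 probe, A_24_P110831, was much dimmer and was above background mainly in treated edited cells. The 16HBE-WT arrays read -6.16, -6.22, -4.71 and -4.36 and the 16HBE-WT+HGF arrays -4.39, -5.63, -5.95 and -4.23, all not well above background. The 16HBE-ex14 arrays read -4.93, -5.07, -3.24 and -4.38, of which only the third was well above background. The 16HBE-ex14+HGF arrays read -2.07, -3.12, -2.09 and -2.73, all well above background and all higher than any other array. With HGF, 16HBE-ex14 was above 16HBE-WT by 2.55 on the log2 scale by this probe (SE 0.53, adjusted p = 0.00324), a value that uses wild-type signals below detection. Setting the treated wild-type arrays at the lowest signal the software marked well above background on each gave 3.08-fold. This value takes no account of the spread between arrays and was not itself tested. The detection limit let the probe in only through arrays of the clone, which favours this direction; with all 58201 probes tested the adjusted p was 0.00636. The response to HGF in 16HBE-ex14 cells, 1.90 (SE 0.53), did not pass the test (adjusted p = 0.0752), with 1 of 4 untreated arrays well above background. It passed with the slide as a block (adjusted p = 0.0368) and without replicate 3 of 16HBE-ex14 (adjusted p = 0.0258), and not with all probes tested (adjusted p = 0.135).

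SCNN1A encodes the alpha subunit of the epithelial sodium channel, the subunit without which the channel carries little current. The 16HBE-WT arrays read -0.61, -1.29, -0.88 and -0.60, and those of 16HBE-WT+HGF read -1.15, -1.55, -1.20 and -1.38. The 16HBE-ex14 arrays read 0.58, 0.93, 0.52 and 0.89, and those of 16HBE-ex14+HGF read 0.33, -0.25, 0.12 and -0.04. All 8 arrays of the edited clone were above all 8 wild-type arrays. Within each genotype the treated mean was below the untreated mean, without overlap in 16HBE-ex14 and with overlap in 16HBE-WT.

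SCNN1A was 2.98-fold higher in 16HBE-ex14 than in 16HBE-WT without HGF (log2 1.57, SE 0.17, adjusted p = 2.54e-05) and 2.56-fold higher with HGF in both (adjusted p = 7.23e-05). The gap was 1.70 on the first slide and 1.45 on the second without HGF, and 1.39 and 1.33 with it. In 16HBE-ex14 cells, SCNN1A fell by 0.69 on the log2 scale with HGF (SE 0.17, adjusted p = 0.0426). This call was close to the threshold: leaving out 1 of the 16 arrays at a time ended it in 10 of 16 cases, with adjusted p between 0.023 and 0.151, namely without replicate 1, 2 or 4 of 16HBE-ex14, replicate 2, 3 or 4 of 16HBE-ex14+HGF, replicate 3 of 16HBE-WT, or replicate 1, 3 or 4 of 16HBE-WT+HGF. In 16HBE-WT cells the difference was -0.48 (95% interval -0.84 to -0.11) and did not pass (adjusted p = 0.928). The 2 responses differed by -0.22 with an interval of -0.73 to 0.30.

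The other sodium channel subunits did not reach the detection limit. SCNN1B, the beta subunit, and SCNN1G, the gamma subunit, which join the alpha subunit in the full channel, had signals of 2.29 to 7.85 and 2.24 to 8.29 units over the 16 arrays, and neither was well above background on any. For comparison between arrays, the upper quartile of all probes lay between 138 and 260 units. No change of either subunit could be measured at that level.

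**Figure D1:**
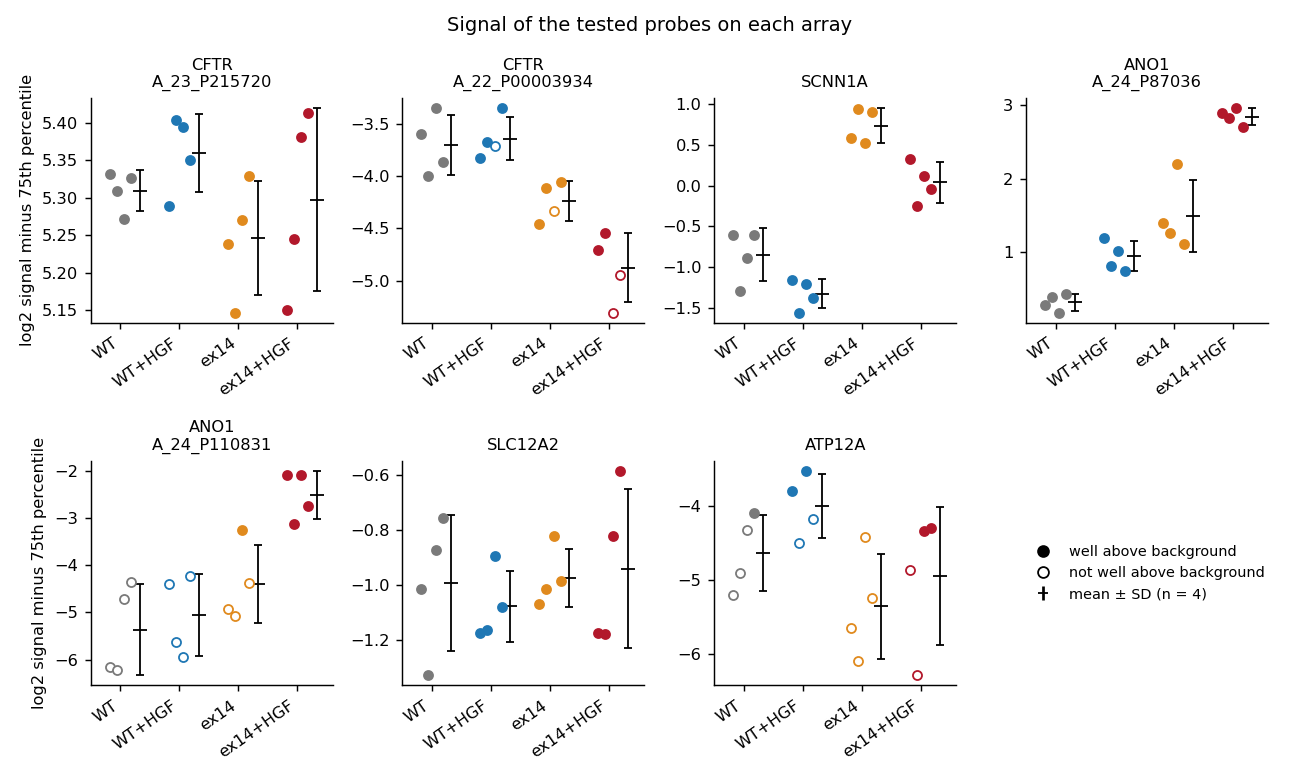
Log2 signal minus the array's 75th percentile (y axis, a separate range in each panel) of the 7 tested probes in the 4 conditions; each point is 1 array, filled where the probe was well above background, and black marks give mean ± SD of 4 arrays. ANO1 A_24_P87036 climbs from 16HBE-WT to 16HBE-ex14+HGF, most points of ANO1 A_24_P110831 outside 16HBE-ex14+HGF are open, SCNN1A separates the genotypes, and CFTR A_23_P215720 spans only 5.15 to 5.41.

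CFTR, the channel whose loss causes cystic fibrosis, gave a bright and even signal with A_23_P215720. The 16HBE-WT arrays read 5.33, 5.31, 5.27 and 5.33, and those of 16HBE-WT+HGF read 5.29, 5.40, 5.39 and 5.35. The 16HBE-ex14 arrays read 5.24, 5.15, 5.27 and 5.33, and those of 16HBE-ex14+HGF read 5.15, 5.24, 5.38 and 5.41. The 4 conditions overlapped one another throughout. The log2 difference with HGF was 0.05 in 16HBE-ex14 cells (95% interval -0.12 to 0.22) and 0.05 in 16HBE-WT cells (-0.12 to 0.22). Between genotypes it was -0.06 without HGF (-0.23 to 0.11) and -0.06 with HGF (-0.23 to 0.11). The smallest adjusted p of these was 0.652, and each interval stayed inside a fold change of 1.5. The order of the 4 means changed with the scaling of the arrays, and no order is read from it.

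The probe beyond the gene, A_22_P00003934, behaved differently. The 16HBE-WT arrays read -3.60, -4.0, -3.35 and -3.86, and those of 16HBE-WT+HGF read -3.83, -3.67, -3.71 and -3.35. The 16HBE-ex14 arrays read -4.46, -4.11, -4.34 and -4.05, and those of 16HBE-ex14+HGF read -4.70, -4.55, -5.30 and -4.95. The arrays of the clone lay below all wild-type arrays, and those with HGF lay lowest. It was well above background on 4, 3, 3 and 2 arrays of these conditions, in the same order. With HGF in both, the clone was lower by -1.24 on the log2 scale (SE 0.18, adjusted p = 0.000231), a ratio of 0.425. Without HGF the difference was -0.54 (adjusted p = 0.0505), and HGF in 16HBE-ex14 cells gave -0.64 (adjusted p = 0.079), both without overlap and both short of the threshold. The first passed without replicate 2 of 16HBE-WT (adjusted p = 0.0348), and the second with quantile normalization (adjusted p = 0.0471) and with scaling to the array median (adjusted p = 0.0492). Since the signal was 5.26 to 20.7 units, close to the detection limit, and the probe's transcript model is not the reference CFTR transcript, these values were kept apart from CFTR mRNA.

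SLC12A2, the sodium, potassium and chloride cotransporter that feeds chloride secretion, did not change in any test. Its level in wild-type cells was -0.99 ± 0.25 without and -1.08 ± 0.13 with HGF, and in the clone -0.97 ± 0.11 without and -0.94 ± 0.29 with HGF (SD, n = 4), and all conditions overlapped. The largest of the 4 direct differences was 0.14 between the treated genotypes (95% interval -0.18 to 0.45, adjusted p = 0.586). The intervals left room for a change of at most 0.45 in either direction on the log2 scale.

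ATP12A, a proton and potassium pump that acidifies the surface liquid, was detected on 1 untreated and 2 treated wild-type arrays, and on 0 untreated and 2 treated arrays of the clone. The 16HBE-WT+HGF arrays read -3.80, -4.50, -3.53 and -4.18, and the 16HBE-ex14+HGF arrays read -4.87, -6.29, -4.34 and -4.31. These groups overlapped, and their difference of -0.95 (SE 0.44) did not pass (adjusted p = 0.154). It passed with the slide as a block (adjusted p = 0.0375) and with the array row as a block (adjusted p = 0.0283).

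KCNQ1, a potassium channel subunit that keeps the driving force for chloride exit, was near the detection limit with both probes. With A_23_P429977 the 8 wild-type arrays ranged from -6.53 to -5.67, the 16HBE-ex14 arrays read -6.85, -3.81, -4.40 and -4.35, and the 16HBE-ex14+HGF arrays read -3.83, -4.63, -4.42 and -4.54. Of the 8 arrays of the clone, 7 were thus above the wild-type arrays, but only 2 were well above background, so the probe was left out of the main test. With no limit on detection it was called between the treated genotypes, on signals mostly not well above background. The other KCNQ1 probe, 327 kb away, was well above background on 1 array of 16HBE-WT+HGF, and its groups overlapped. SLC26A4, a chloride and bicarbonate exchanger, was well above background on 1 array of 16HBE-WT, at -3.82, and ranged down to -7.25. SLC26A9, an anion channel of the apical membrane, ranged from -6.60 to -4.37 and was well above background on none.

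The upstream sequence of ANO1 and CFTR is shown because the main probe of the one changed and that of the other did not. It is the 250 bases before the RefSeq start of each gene on GRCh38.p14, plus strand, with matches to 6 motifs in capitals.
ANO1, chr11:69985657-69985906: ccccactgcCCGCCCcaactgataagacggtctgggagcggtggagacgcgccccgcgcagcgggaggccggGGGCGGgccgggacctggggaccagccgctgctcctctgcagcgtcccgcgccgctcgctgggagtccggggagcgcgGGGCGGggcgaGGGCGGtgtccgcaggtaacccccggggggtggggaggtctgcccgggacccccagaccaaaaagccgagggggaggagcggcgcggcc
CFTR, chr7:117479775-117480024: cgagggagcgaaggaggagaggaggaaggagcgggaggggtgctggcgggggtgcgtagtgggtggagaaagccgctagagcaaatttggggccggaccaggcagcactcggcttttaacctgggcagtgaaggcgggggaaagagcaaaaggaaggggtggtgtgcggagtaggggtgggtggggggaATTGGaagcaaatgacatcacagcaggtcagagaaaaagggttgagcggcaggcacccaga
The motifs, searched on both strands, were the AP-1 site TGANTCA, the GC box GGGCGG, the CCAAT box CCAAT, the TATA box TATAAA, an ETS site CCGGAAG and the cyclic AMP response element TGACGTCA. ANO1 held 4 GC boxes, in a stretch of 78% G and C with 30 CG pairs, and CFTR held 1 CCAAT box, read on the minus strand, in a stretch of 61.2% G and C with 11 CG pairs. Of 35116 RefSeq promoters of this length, 42.6% held a GC box and 32% a CCAAT box, so neither is unusual; the median G and C content was 58%. The AP-1 site occurs in 6.57% of them and in 0 of the 7 of these genes that RefSeq's table lists, which are ANO1, ATP12A, CFTR, SCNN1B, SLC12A2, SLC26A4 and SLC26A9. SLC12A2 had 3 GC boxes and did not change. A match is a run of letters and says nothing of binding.

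Genes whose arrays followed the same pattern were listed for the 4 genes detected throughout, by Pearson correlation over the 16 arrays among 26323 gene names. These correlations are descriptions, since the 16 points are 4 conditions and share arrays. ANO1 ran most closely with FOXL1 (0.99), VIM (0.98) and DOCK4 (0.98). VIM, the intermediate filament vimentin, had means of -1.65, -0.65, 1.00 and 3.30 in wild type, treated wild type, the clone and the treated clone, and thus the same order as ANO1. SCNN1A ran with ALDH1A1 (0.98), a retinaldehyde-oxidising enzyme, CCL2 (0.98), a chemokine, and IRS1 (0.97), an adaptor of the insulin receptor. ALDH1A1 had means of 1.72, 1.13, 4.48 and 3.20 in those conditions, again lower with HGF in each genotype and higher in the clone. CFTR (CYCS 0.89, MRPL19 0.88 and RPF2 0.88) and SLC12A2 (RIN2 0.93, PRRC1 0.89 and MTPN 0.89) moved so little that their lists reflect small differences between arrays.

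The position of the genes was examined too, because the clone was edited at MET and CFTR lies on the same chromosome arm. MET had its brightest probe 870 kb from that of CFTR, and its difference between the untreated genotypes was 0.13 (adjusted p = 0.456). The 14 tested genes within 2 Mb of the CFTR probe had a median difference of 0.07 without HGF, none of them called. Near ANO1, 73 genes had a median of 0.06, with 7 called higher and 4 lower, where 4.48% of all gene names were called higher and 4.77% lower, and ANO1 had rank 3 from the top among them without HGF and rank 1 with HGF. Near SCNN1A, 93 genes had a median of 0.29, with 14 called higher and 1 lower against the same shares, and SCNN1A had rank 3. The median with HGF in both was 0.29 as well, with 12 higher and 3 lower, against 5.36% and 5.28% of all gene names. The region of SCNN1B and SCNN1G had 45 tested genes with a median of 0.36 without HGF, although both subunits were below background. Over all gene names the median was -0.02. What part the level of this region has in the SCNN1A difference was not tested. In the HGF comparison of the clone, the SCNN1A region had a median of 0.02, and SCNN1A itself ranked 91 from the top of 94.

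A further 57 genes of epithelial ion and water transport were read beside the 10, and 47 of them were tested. HGF in 16HBE-ex14 cells raised 1 and lowered 0 of the 47, with a median difference of 0.00 against 0.06 over all gene names, of which 2.1% were called (1.13% higher and 0.968% lower). The gene was STX1A, a membrane fusion protein that binds CFTR, which rose by 0.88 on the log2 scale (adjusted p = 0.00313). In 16HBE-WT cells HGF changed 0 of 47 by limma, where 0% of gene names were called, with 1 of 47 at an unadjusted p under 0.05.

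Between the genotypes, 12 of the 47 were called without HGF, 7 higher and 5 lower in the clone, against 9.25% of all gene names (4.48% higher and 4.77% lower). With HGF in both the count was again 12, with 7 higher and 5 lower, against 10.6% (5.36% higher and 5.28% lower). The median differences were 0.03 and 0.05, beside -0.02 and 0.01 over all gene names. The largest rise was that of CA2, a carbonic anhydrase that supplies bicarbonate, at 2.17 without HGF and 2.27 with it (adjusted p = 8.5e-07 and 5.36e-07). KCNMA1, the large-conductance potassium channel, was higher by 1.38 and 1.56. P2RY2, the nucleotide receptor that raises calcium and so opens ANO1, was higher by 0.62 and 1.19 (adjusted p = 0.0034 and 1.87e-05). AQP1, a water channel, was higher by 0.86 and 0.69.

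The largest falls were those of PDZK1, a scaffold that binds CFTR and other apical transporters, and AQP3, a water and glycerol channel. PDZK1 was well above background on all wild-type arrays and on none of the clone. With each clone array set no lower than its lowest signal marked well above background, 16HBE-WT stood 6.49-fold above 16HBE-ex14 without HGF. With HGF in both the fold was 5.36. These folds take no account of the spread between arrays and were not themselves tested. PDZK1 was tested only through those wild-type arrays, which favours this direction, and it was called as well with no limit on detection. AQP3 differed by -1.81 and -1.95 (adjusted p = 2.43e-05 and 1.08e-05). SLC26A6, an anion exchanger, differed by -0.81 and -0.78, and KCNK5, a background potassium channel, by -0.75 and -0.78, all called. SLC9A2, a sodium and proton exchanger, differed by -0.78 and -1.10, both called. It was close to the detection limit, detected without HGF on 3 wild-type and 2 clone arrays, and these untreated groups overlapped. Called without HGF and not with it were PDE4D (0.97), which breaks down cyclic AMP, SLC26A2 (0.75), a sulfate transporter, and WNK1 (0.60), a kinase that controls chloride cotransport. Called with HGF and not without it were STX1A (1.09), SGK1 (1.06) and ADORA2B (0.73), the last an adenosine receptor that raises cyclic AMP. No test of the difference between the HGF responses was called for any of the 47, with 5 at an unadjusted p under 0.05 by limma.

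Among the ENaC regulators, SGK1, a kinase that keeps the sodium channel at the surface, had differences of 0.62 (adjusted p = 0.152) and 1.06 (adjusted p = 0.0138) between the genotypes without and with HGF. NEDD4L, the ubiquitin ligase that removes the channel, did not pass in any comparison, with values between -0.02 and 0.31. The other 6 tested regulators were not called either. KCNE3, the beta subunit that pairs with KCNQ1 in airway cells, was below background on all 16 arrays.

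The labelled cell type was read through marker lists. The 5 epithelial markers (EPCAM, CDH1, KRT8, KRT18 and KRT19) were well above background on every array and none was called in any comparison. A pair of them came close to the fold limit without overlap of the arrays: KRT19 was lower in the untreated clone than in untreated wild type by -0.58 on the log2 scale (adjusted p = 0.000401), and CDH1 differed by -0.58 with HGF in 16HBE-ex14 cells (adjusted p = 0.0358). Of the 6 markers of ionocytes, the airway cells richest in CFTR, ASCL3, ATP6V0D2 and ATP6V1G3 were below background on all arrays and STAP1 was detected on 2. FOXI1, the ionocyte transcription factor, was detected on 12 and fell by 2.31 on the log2 scale with HGF in 16HBE-ex14 cells (adjusted p = 0.012). In the clone, FOXI1 was detected on 4 untreated arrays and 1 treated array, so the size of this fall rests largely on signals below detection. BSND, detected on 10, differed by 0.86 in the same comparison, with overlap, and did not pass (adjusted p = 0.442). Its signal in the clone was detected on 1 untreated and 4 treated arrays. The summed level of the 6, in multiples of the array's upper quartile, ranged from 0.25 to 0.424 in wild-type cells without HGF and 0.239 to 0.347 with it, and from 0.313 to 0.549 in the clone without HGF and 0.18 to 0.349 with it. Among 5 basal markers, KRT5 and KRT14 were lower in the clone, with and without HGF, and fell with HGF within it. TP63, NGFR and ITGA6 were not called. ITGA6 rose by 0.49 with HGF in the clone (adjusted p = 0.00629) and was lower by -0.40 in the untreated clone (adjusted p = 0.00431). Both lacked overlap of the arrays and fell short of the fold limit. ITGA6 had the highest mean of the 5 in every condition and so weighs most in their sum. The summed basal level was 27.3 to 32 and 26 to 30.7 in the wild-type conditions and 16 to 18.7 and 20.3 to 22.6 in those of the clone.

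Of the 5 ciliated markers, TPPP3 and CAPS were detected on all arrays and DNAI1 on none, and none was called. Of the 5 secretory markers, SCGB1A1, SCGB3A1 and SPDEF were detected on all arrays and MUC5B on none, and SPDEF rose by 0.61 with HGF in 16HBE-ex14 cells (adjusted p = 0.0141). Of the 5 fibroblast markers, COL1A1 and PDGFRB were detected on all arrays and COL1A2 and COL3A1 on none. LUM was detected on all 8 wild-type arrays, through which alone it was tested, and on none of the clone. With the clone arrays set as for PDZK1, 16HBE-WT stood 3.06-fold above 16HBE-ex14 without HGF and 2.23-fold with it. These folds too take no account of the spread between arrays and were not themselves tested. The summed fibroblast level ranged from 0.539 to 1.03 and 0.548 to 0.794 in wild-type cells without and with HGF, and from 0.316 to 0.5 and 0.394 to 0.403 in the clone. The 4 leukocyte markers with a probe, PTPRC, CD3E, CD14 and ITGAM, were detected on all arrays, and CD3E was lower in the untreated clone by -0.98 (adjusted p = 0.0237). Their summed level overlapped between all conditions, within 0.862 to 1.55. All cultures were of the 16HBE line, so a marker's signal is not read here as the presence of that cell type. The part of these shifts in the ANO1 and SCNN1A differences was not tested. In RNA from whole cultures, fewer cells expressing a marker and less of its RNA per cell cannot be told apart.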

How the data were processed

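RNA was measured with 60-base probes on 16 Agilent arrays of 1 colour, 4 per condition, on 2 slides whose rows each held 1 array of every condition. The authors extracted the signals with Feature Extraction 10.7.3.1, and the intensity deposited by the authors is its processed signal, background-subtracted and detrended but not scaled between arrays. The series' value table, also deposited, matched these signals at each of the 62976 spots. Here, outlier spots were left out, log2 values were taken, each array's 75th percentile was subtracted and spots of a probe were averaged. On an array, 49% to 60.3% of probes were well above background, and the lowest such signal lay between -4.93 and -3.76. Some signals above that value on an array were not marked, so the value gives only a rough limit of detection. The number of arrays limits the precision.

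Tested were the 34600 of 58201 probes (59.4%) marked well above background on 4 or more of the arrays, with limma 3.58.1 in R 4.3.3, 1 mean per condition over all arrays. The 5 contrasts were HGF within each genotype, the genotypes without and with HGF, and the HGF responses compared between genotypes. They share arrays. A probe was called at a Benjamini-Hochberg adjusted p below 0.05 and a fold change above 1.5; tests were two-sided and were tested on simulated data. The labels do not tie arrays to separate cultures, so the p values measure the spread between these arrays. The wider list used the brightest probe of a gene; some genes first placed in it are not reported here and enter none of its counts. Named were all 10 genes, wider-list genes called in any contrast, KCNE3, NEDD4L and SGK1, the 3 most alike genes for genes detected on at least 12 arrays, and neighbours within 2 Mb as counts and medians, with MET. The genes and lists were chosen with earlier results of these data known. Alternatives covered background correction, scaling, filters, blocks, the prior, the adjustment, the arrays in the fit and leaving out each array.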

Additional observations from a re-analysis of the deposited data

How the results depend on the processing

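Under 28 or 29 alternatives each, the 35 differences of the 7 tested probes gave 1005 values; ANO1 A_24_P110831 and ATP12A gave none where 8 arrays had to be above background. Of these, 979 kept their outcome, called or not called, and most of them were for differences not called as reported. A call was lost in 16, gained in 10 and reversed in direction in 0. The sign changed in 34, all for differences not called. The ANO1 A_24_P87036 and SCNN1A differences between the genotypes kept their calls under all alternatives, as did the HGF response of ANO1 A_24_P87036 in 16HBE-ex14 cells (log2 1.19 to 1.58).

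The count of ion channel probes called for HGF in 16HBE-ex14 cells, 2 as reported, was 1 with normexp background, with scaling to the E1A spike-ins, with no filter on dim probes and with only the arrays of the conditions compared, and 4 with the 5 contrasts adjusted together; it was 1 to 3 when 1 array was left out. For the treated genotypes it was 2 in place of 4 with normexp background, and stayed at 4 when 1 array was left out; for the untreated ones the latter range was 2 to 3. In the wider list, the count for HGF in 16HBE-ex14 cells, 1 as reported, was 2 with scaling to the array median, 4 with no fold change limit and 1 to 3 with 1 array left out, the 3 being without replicate 3 of 16HBE-ex14. Without the fold change limit, 21 in place of 12 were called between the treated genotypes. With the 5 contrasts adjusted together, 1 gene in place of 0 was called for the difference between the HGF responses. The counts for HGF in 16HBE-WT cells were 0 throughout. The shares of all probes or gene names called under the alternatives are not given. The counts here and below thus show only how the calls of these genes moved with the setting.

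The fall of SCNN1A with HGF in 16HBE-ex14 cells was the least stable call: it was lost in 14 of 29 alternatives, with log2 values of -0.85 to -0.56 and adjusted p of 0.00717 to 0.151. With normexp background the treated genotypes differed by 0.32 for ANO1 A_24_P110831 and by -0.42 for CFTR A_22_P00003934, both short of the fold limit. Scaling to the array median moved the median of all probes for HGF in 16HBE-ex14 cells from 0.06 to -0.11 and for the untreated genotypes from -0.02 to 0.12. With the array row as a replicate block, the counts of ion channel probes were 2 for HGF in 16HBE-ex14 cells, 0 for HGF in 16HBE-WT cells, 2 between untreated genotypes and 5 between treated ones, ATP12A being added. The rows do not establish a pairing: arrays of different conditions in the same row had deviations correlated between 0.03 and 0.32, with 20 of 24 pairs above 0.1, much as for the other row of the slide (0.04 to 0.41), and unlike those of the other slide (-0.36 to 0.03). With the slide as a block, the counts for HGF in 16HBE-ex14 cells and between treated genotypes were 3 and 5, ANO1 A_24_P110831 being added to the one and ATP12A to the other. For the 9 of 13 probes not well above background on every array, signals near the detection limit leave changes poorly measured or unmeasured; the causes of the changed calls were not tested.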
